A study of Mus musculus with 24 samples.

Results

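Matricellular and adhesive glycoproteins were followed in cultured mouse lung fibroblasts as 9 genes chosen by name: Fn1, Tnc, Tnxb, Postn, Thbs1, Thbs2, Sparc, Spp1 and Cthrc1. They are 9 of the 55291 gene symbols in the count tables, and each symbol had 1 row in each of the 24 libraries. The study asked how extracellular cold-inducible RNA-binding protein (CIRP), a protein released by stressed cells that binds Toll-like receptor 4 (TLR4), changes transcription in pulmonary fibroblasts, and whether transforming growth factor β1 (TGF-β1), the classical profibrotic cytokine, alters that response. Fibroblasts came from wild type (WT) mice and from mice labelled TLR4-/-, both of strain C57BL/6 and 4 to 8 weeks old. Cells of each genotype were grown from pools of 3 to 4 lungs, used at passages 3 to 6, and kept for 24 h with PBS, with 1 μg/ml recombinant mouse CIRP (rmCIRP), with 2 ng/ml rmTGF-β1, or with both. The 8 conditions had 3 libraries each. No label says that the 3 libraries of a condition came from separate animals or separate isolations, so the p-values measure the spread between these libraries, which may be technical.

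These proteins are secreted into the matrix, where most of them do not bear load as collagens do. They bind cells through integrins and other receptors, bind collagens and growth factors, and set how firmly a cell attaches to its surroundings. In the adult lung many of them are low at rest and are made by activated fibroblasts during repair and fibrosis. Fibronectin (Fn1) is the adhesive scaffold on which other matrix proteins assemble, and osteopontin (Spp1) is also a major product of macrophages.

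Between 29853346 and 39664606 reads per library fell on genes, and all 9 genes passed the filter on low counts, with a lowest raw count of 197 (Tnxb). Values below are normalized counts, that is counts divided by the library's DESeq2 size factor. Library 3 of the cells labelled TLR4-/- with both proteins stood apart, with a median absolute log2 distance of 0.132 from its other 2 libraries, while the other 23 libraries lay between 0.0528 and 0.0979. The targeted gene did not separate the labels by a loss of mRNA: Tlr4 was at 759 ± 41.9 (SD, n = 3) normalized counts in WT and 903 ± 20.2 in the libraries labelled TLR4-/-, both with PBS (edgeR adjusted p = 0.00123). A gene-level count does not show which exons were read, the allele is not given in the sources used here, and TLR4-/- is therefore used below as a label. Xist stayed at or under 2.995 normalized counts in WT and was between 4328 and 6096 in those labelled TLR4-/-, while the Y-linked Ddx3y was present in both, at 3509 to 4642 and 1847 to 2532, so the sex makeup of the pooled mice and the genotype cannot be told apart.

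The 9 genes covered a wide range of levels. Together they took 4.09 to 4.56% of the reads on genes, and Thbs1, Tnc, Fn1 and Sparc made up 94.8% of those reads in WT cells with PBS. Per kilobase of exon, Thbs1 (thrombospondin 1, which releases TGF-β from its latent complex and binds CD47 and CD36) was highest in WT cells with PBS, at 104578 ± 4052 normalized counts per kb (SD, n = 3), rank 3 of 15977 genes ranked. Sparc (osteonectin, a collagen-binding protein) followed at 57649 ± 2543 per kb, rank 15. Tnc (tenascin C, an injury-induced protein that weakens adhesion), Spp1 and Fn1 came next, at 36606 ± 1834, 31198 ± 1076 and 20189 ± 934 per kb. The other 4 genes lay at least an order of magnitude under Thbs1. Thbs2 (thrombospondin 2, an inhibitor of angiogenesis) was at 2068 ± 219 per kb, Postn (periostin, which promotes collagen crosslinking) at 874 ± 18.9, Cthrc1 (a secreted protein that marks collagen-producing fibroblasts of fibrotic lung) at 729 ± 31.9, and Tnxb (tenascin X, a stabilizer of collagen fibrils) at 61.6 ± 7.39. In that order no pair of neighbours had overlapping libraries. In the libraries labelled TLR4-/- the order changed at Spp1, which was at 131374 ± 7840 per kb and rank 2 of all genes ranked, above Thbs1 at 92002 ± 7806, and at Postn, at 1610 ± 170 per kb, whose libraries overlapped those of Thbs2 at 1418 ± 124.

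**Figure D1:**
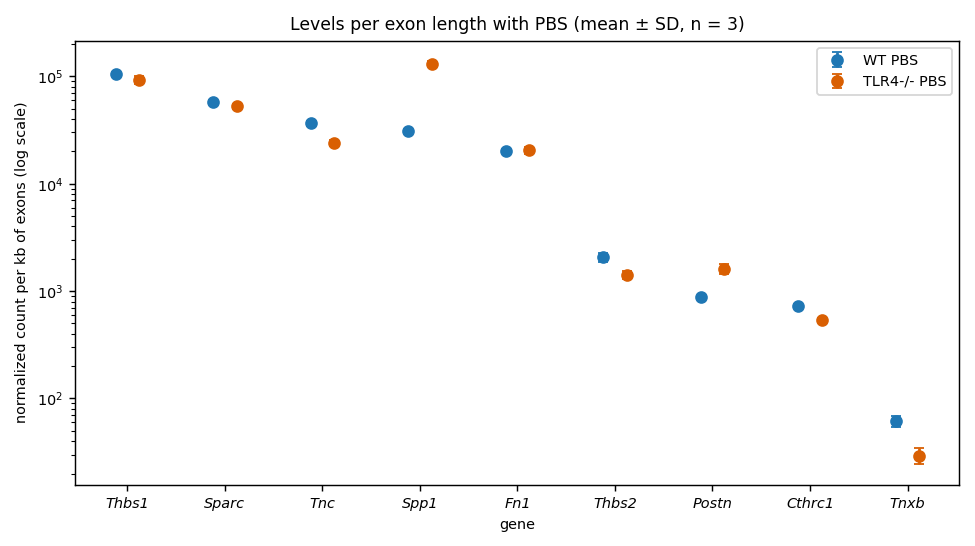
Level of each of the 9 genes with PBS, as normalized counts per kilobase of exon on a log axis, for WT (blue) and libraries labelled TLR4-/- (orange); points are means of 3 libraries and bars are SD. Thbs1 was highest in WT at 104578 per kb, Tnxb was lowest at 61.6, and Spp1 rose from 31198 to 131374 between the labels.

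How far each gene ranged over the 8 conditions differed. The highest condition mean was 4.87 times the lowest for Spp1, 3.35 times for Tnxb, 2.49 times for Postn, 2.21 times for Thbs2, 2.13 times for Tnc and 2.06 times for Cthrc1. It was 1.25 times for Thbs1, 1.2 times for Sparc and 1.14 times for Fn1. For Spp1 nearly all of that range lay between the genotypes, since within WT it was 1.16 times and within the libraries labelled TLR4-/- 1.09 times. For Cthrc1 the reverse was seen, with a range of 2.06 times within WT and of 1.2 times within the libraries labelled TLR4-/-.

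**Figure D2:**
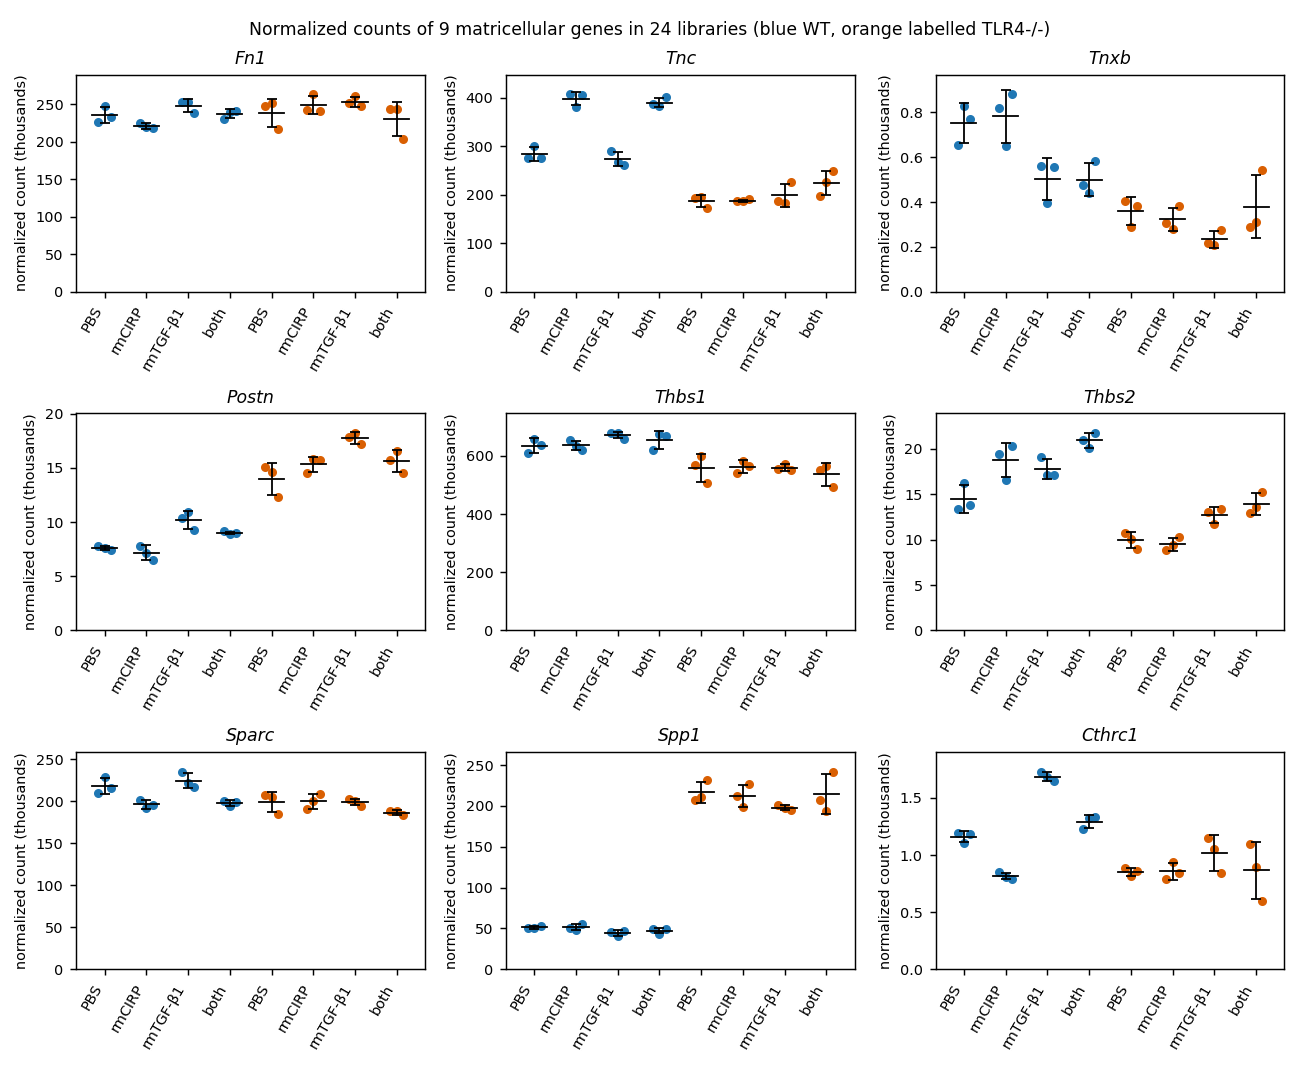
Normalized counts (axis in units of 1000) of the 9 genes in all 24 libraries, by treatment, with WT in blue and libraries labelled TLR4-/- in orange; long bars are means and short bars SD of 3 libraries, and every axis starts at 0. Tnc was at 381553 or more in the 6 WT libraries with rmCIRP, alone or with rmTGF-β1, and at 247777 or less in those labelled TLR4-/-.

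For 4 genes that the comparisons below turn on, the 250 bases upstream of a transcript start are given (RefSeq, assembly GRCm38.p6, 5′ to 3′ on the gene's strand), because Tnc and Thbs2 rose together with rmCIRP, Thbs2 and Postn rose with rmTGF-β1, and Spp1 differed most between the genotypes. Promoters were listed for Tnc, Tnxb, Postn, Thbs2, Sparc and Spp1, which is 6 of the 9 genes, and those of Fn1, Thbs1 and Cthrc1 were not analysed here. Where a gene had several starts, the start near which more GENCODE M21 transcripts begin was taken (for Tnc 1 of 4 transcripts). The windows are chr4:64047016-64047265 (minus strand) for Tnc, chr17:14694263-14694512 (minus) for Thbs2, chr3:54360857-54361106 (plus) for Postn and chr5:104434861-104435110 (plus) for Spp1. Capitals mark matches on either strand to the TATA box letters TATAAA, to the letters CCAAT of the box of that name, and to CAGACA, a SMAD-binding sequence.
Tnc: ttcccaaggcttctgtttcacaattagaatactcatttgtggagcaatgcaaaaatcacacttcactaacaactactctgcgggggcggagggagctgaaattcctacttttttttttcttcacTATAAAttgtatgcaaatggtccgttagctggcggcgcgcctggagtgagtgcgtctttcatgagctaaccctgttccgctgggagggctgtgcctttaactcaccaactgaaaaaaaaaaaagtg
Thbs2: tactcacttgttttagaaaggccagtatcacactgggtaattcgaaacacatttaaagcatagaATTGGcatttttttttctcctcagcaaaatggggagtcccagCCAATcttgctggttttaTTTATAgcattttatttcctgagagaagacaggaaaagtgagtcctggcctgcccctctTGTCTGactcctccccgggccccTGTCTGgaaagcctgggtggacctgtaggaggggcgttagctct
Postn: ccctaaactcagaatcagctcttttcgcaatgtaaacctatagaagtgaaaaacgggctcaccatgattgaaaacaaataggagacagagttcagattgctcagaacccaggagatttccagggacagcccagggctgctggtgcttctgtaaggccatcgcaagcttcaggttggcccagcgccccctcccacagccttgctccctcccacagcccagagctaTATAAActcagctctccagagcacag
Spp1: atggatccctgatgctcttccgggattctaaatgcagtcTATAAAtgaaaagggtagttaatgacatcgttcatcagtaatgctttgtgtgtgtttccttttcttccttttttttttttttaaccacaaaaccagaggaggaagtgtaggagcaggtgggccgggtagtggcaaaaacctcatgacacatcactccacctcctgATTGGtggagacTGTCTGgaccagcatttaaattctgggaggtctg
Postn had TATAAA 26 to 21 bases before its start, the place of a classical TATA box, whereas in Tnc and Thbs2 the match lay 126 to 121 bases before the start and in Spp1 211 to 206 bases before it. The Thbs2 match was on the opposite strand. CAGACA was found on the opposite strand at 2 places in Thbs2, at 1 place in Spp1 and, 71 to 66 bases before it, at the other listed start of Tnc (window chr4:64046937-64047186, not printed), and CCAAT at 2 places in Thbs2 and at 1 place in Spp1. Of 32851 mouse promoter windows of this length, 12.4% held TATAAA, 33.8% CCAAT and 17.1% CAGACA. An AP-1 sequence (TGANTCA, in 6.75% of windows), an NF-κB sequence (in 1.21%) and a CArG box (in 1.47%), the serum response factor sequence, were not matched in these 4 windows, and the AP-1 sequence was matched in that of Tnxb. In the window of Sparc, also not printed, CAGACA was matched on the opposite strand, 36 to 31 bases before the start. A match describes letters only. Only these exact letters were searched, so related forms, such as TATATAAG near the other listed start of Tnc, were not counted.

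To see what rmCIRP did in WT cells, the rmCIRP libraries were compared with the PBS libraries. Tnc and Thbs2 rose, and Sparc and Cthrc1 fell. These 4 of 9 genes were called by edgeR's quasi-likelihood test at a Benjamini-Hochberg adjusted p under 0.1 over 16258 genes, against 43.9% of all genes tested, so the share called was close to that background. The median log2 fold change of the 9 genes was -0.004, and that of all genes -0.022.

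Tnc had 276179, 300968 and 276369 normalized counts with PBS and 406879, 381553 and 405960 with rmCIRP. Every rmCIRP library lay above every PBS library, a 1.39-fold rise (log2 fold change 0.48, SE 0.07, edgeR adjusted p = 2.23e-05). For Thbs2 the counts were 13370, 16229 and 13850 with PBS and 19420, 16619 and 20285 with rmCIRP. The groups did not overlap, although the lowest rmCIRP library was close to the highest PBS library, and the rise was 1.29-fold (log2 fold change 0.37, SE 0.09, edgeR adjusted p = 0.00157).

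Sparc had 210130, 228964 and 216027 with PBS and 201850, 192001 and 195091 with rmCIRP. The fall was small but all 3 rmCIRP libraries were under the PBS libraries (log2 fold change -0.16, SE 0.04, edgeR adjusted p = 0.00678). Cthrc1 had 1192, 1102 and 1188 with PBS against 850, 809 and 794 with rmCIRP. It fell the most of the 9 genes, to 0.702 of its level with PBS (log2 fold change -0.51, SE 0.13, edgeR adjusted p = 0.00368). The 5 genes not called had log2 fold changes of -0.10 (Fn1, edgeR adjusted p = 0.218), -0.09 (Postn), -0.004 (Thbs1), -0.002 (Spp1) and 0.06 (Tnxb). The Fn1 groups did not overlap either. Here and below, the share of all genes without overlap was not counted, so overlap only describes the libraries. None of the 4 calls was lost when any 1 library was left out, and Postn was called without rmCIRP library 1 (edgeR adjusted p = 0.0976).

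The summed level of 7 fibroblast markers was 432476 to 449364 normalized counts in the WT PBS libraries and 334743 to 367728 in the WT rmCIRP libraries, with 2 of the 7 genes higher and 4 lower. The sum for 13 macrophage markers was 90887 to 99204 with PBS and 82371 to 87783 with rmCIRP, with 5 higher and 8 lower. The sum for 5 smooth muscle and pericyte markers was 83050 to 88848 with PBS and 54811 to 60025 with rmCIRP, with 0 higher and 3 lower, and that for 5 endothelial markers 721.8 to 1009 and 745.9 to 882.2, with 0 higher and 2 lower. No gene of these 4 lists was at 0 in a whole group, and the part of these shifts in the members' changes was not tested. In bulk RNA, fewer cells of a type and less RNA per cell cannot be told apart.

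The rmTGF-β1 libraries were compared with the PBS libraries in WT cells to give the response to the profibrotic cytokine alone. Cthrc1, Postn and Thbs2 rose, and Tnxb and Spp1 fell, which is 5 of 9 genes called against 12.4% of all genes tested. The median log2 fold change was 0.068 over the 9 genes and -0.02 over all genes.

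Cthrc1 had 1726, 1683 and 1648 normalized counts with rmTGF-β1, all above the 1192, 1102 and 1188 with PBS, and rose 1.45-fold (log2 fold change 0.53, SE 0.13, edgeR adjusted p = 0.00909). Postn had 7751, 7644 and 7428 with PBS and 10358, 10898 and 9285 with rmTGF-β1. It rose 1.33-fold without overlap (log2 fold change 0.42, SE 0.07, edgeR adjusted p = 0.000553). Thbs2 reached 19114, 17117 and 17131 (log2 fold change 0.29, SE 0.09, edgeR adjusted p = 0.0348), again above every PBS library.

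Tnxb had 653, 831 and 772 with PBS and 560, 395 and 554 with rmTGF-β1, a fall to 0.668 of its PBS level (log2 fold change -0.58, SE 0.19, edgeR adjusted p = 0.0571). Spp1 had 50000, 50839 and 53404 with PBS and 45614, 40685 and 47090 with rmTGF-β1 (log2 fold change -0.21, SE 0.07, edgeR adjusted p = 0.0677). In both genes the groups did not overlap. Sparc, Thbs1, Fn1 and Tnc stayed uncalled, with log2 fold changes from -0.07 (Tnc) to 0.08 (Thbs1).

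The calls of Cthrc1 and Postn held whichever library was left out. Thbs2 was no longer called without PBS library 1, PBS library 3 or rmTGF-β1 library 1 (edgeR adjusted p 0.118 to 0.152), Tnxb without PBS library 2, PBS library 3 or rmTGF-β1 library 2 (0.147 to 0.265), and Spp1 without PBS library 1, 2 or 3 or rmTGF-β1 library 2 (0.122 to 0.308), so 2 to 5 of the 9 genes were called in these fits, with 2 called without PBS library 3. Among all genes, 1029 to 1690 were called in these fits. The fibroblast sum was 481714 to 498591 with rmTGF-β1, above its range with PBS (2 of 7 higher, 2 lower), and the macrophage sum 82378 to 94210 (0 of 13 higher, 2 lower), and their part was not tested.

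The next comparisons asked whether each protein acted in WT cells in the presence of the other. When rmCIRP was added to rmTGF-β1, Tnc and Thbs2 rose and Postn, Sparc and Cthrc1 fell, 5 of 9 genes called against 42.2% of all genes. Tnc had 386741, 382239 and 400251 normalized counts with both proteins against 289065, 267279 and 261812 with rmTGF-β1 alone, a 1.42-fold difference (log2 fold change 0.51, SE 0.07, edgeR adjusted p = 1.12e-05). Cthrc1 had 1224, 1325 and 1330 with both, under every rmTGF-β1 library, and fell to 0.764 of that level (log2 fold change -0.39, SE 0.13, edgeR adjusted p = 0.0188). Sparc had 200852, 193987 and 199221 with both against 234920, 221900 and 217265 (log2 fold change -0.19, SE 0.04, edgeR adjusted p = 0.00205).

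Thbs2 had 21036, 20082 and 21743 with both proteins, the highest mean of this gene in any condition (log2 fold change 0.23, SE 0.09, edgeR adjusted p = 0.0379 against rmTGF-β1). Postn had 9138, 8890 and 8949 and was lower than with rmTGF-β1 alone (log2 fold change -0.18, SE 0.07, edgeR adjusted p = 0.0479). These last calls were the weakest. Thbs2 lost its call without rmTGF-β1 library 2, rmTGF-β1 library 3 or combined library 3 (edgeR adjusted p 0.125 to 0.131), and Postn without rmTGF-β1 library 1 or 2 or combined library 2 or 3 (0.105 to 0.2), which left 3 to 5 genes called, with 3 called without rmTGF-β1 library 2 or combined library 3. Among all genes, 5858 to 6287 were called when 1 library was left out.

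When rmTGF-β1 was added to rmCIRP, Cthrc1 and Postn rose and Tnxb fell, 3 of 9 genes called against 20.5% of all genes. Cthrc1 went from 850, 809 and 794 to 1224, 1325 and 1330, a 1.58-fold rise (log2 fold change 0.66, SE 0.13, edgeR adjusted p = 0.00118). Postn went from 7838, 7178 and 6470 to 9138, 8890 and 8949 (log2 fold change 0.32, SE 0.07, edgeR adjusted p = 0.00263), and Tnxb from 818, 652 and 881 to 477, 440 and 584 (log2 fold change -0.65, SE 0.19, edgeR adjusted p = 0.0215). All 3 genes moved without overlap, and so did Fn1, which was not called (217752 to 225485 with rmCIRP, 230033 to 241059 with both, edgeR adjusted p = 0.334). Tnxb was not called without rmCIRP library 3 or combined library 2 (edgeR adjusted p 0.108 and 0.1).

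Against PBS, Cthrc1 was thus the only member called in opposite directions with the 2 proteins in WT cells. It had 818 on average with rmCIRP, 1161 with PBS, 1293 with both and 1686 with rmTGF-β1. Postn also rose with rmTGF-β1 and was lower when rmCIRP was added to it, but its change with rmCIRP against PBS was not called. Tnc gave a different picture, 398130 with rmCIRP and 389743 with both against 284505 with PBS and 272719 with rmTGF-β1. The interaction of rmCIRP with rmTGF-β1, that is the response to both minus the sum of the single responses, was called by edgeR for 0 of the 9 genes, against 0.0492% of all genes. At an unadjusted p under 0.05 it was found for 0 of the 9 genes and for 917 of all 16258 genes tested. DESeq2 called it for 0 of the 9 genes and for 37 of all genes. The fitted interactions ran from -0.14 (Thbs2, SE 0.12) to 0.12 (Cthrc1, SE 0.18) on the log2 scale. The PBS, rmTGF-β1 and rmCIRP libraries were shared by several of these comparisons, so their values are not independent of one another.

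**Figure D3:**
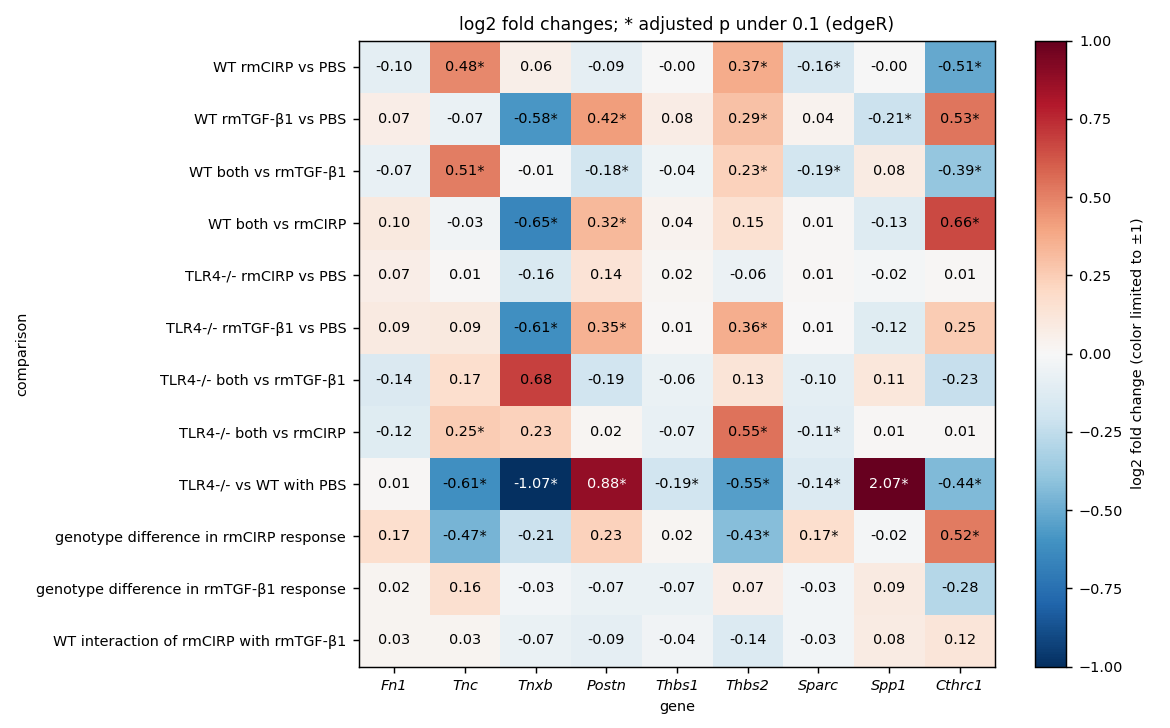
Log2 fold changes of the 9 genes (columns) in 12 comparisons (rows), with the color scale limited to ±1 and an asterisk where the edgeR adjusted p was under 0.1; the last 3 rows are differences of log2 fold changes. The row for rmCIRP in libraries labelled TLR4-/- holds no asterisk, and the largest value is 2.07 for Spp1 between the genotypes with PBS.

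In the libraries labelled TLR4-/-, rmCIRP was compared with PBS to give its response under that label. None of the 9 genes was called by edgeR (0 of 9, against 0% of all genes), none had an unadjusted p under 0.05, and DESeq2 called 0 of the 9. Over all genes, edgeR called 0, 1136 had an unadjusted p under 0.05, and DESeq2 called 33. Tnc had 192836, 195182 and 172309 normalized counts with PBS and 187088, 185824 and 190030 with rmCIRP. Cthrc1 had 887, 817 and 859 with PBS and 792, 936 and 841 with rmCIRP. Both pairs of groups overlapped, as did those of the other 7 genes, and the log2 fold changes ran from -0.16 (Tnxb, SE 0.21) to 0.14 (Postn, SE 0.07). How many of all genes overlapped was not counted, so the overlap is not read as a result about the members.

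The difference between the 2 rmCIRP responses was tested directly, as the change in the libraries labelled TLR4-/- minus the change in WT. The labels also differed in Xist and in macrophage marker sums, so genotype cannot be told apart from sex makeup or cell content. It was called for Tnc, Thbs2, Sparc and Cthrc1, 4 of 9 genes against 31.4% of all genes. For Tnc the difference was -0.47 on the log2 scale (SE 0.10, edgeR adjusted p = 0.0021), made up of 0.01 in the libraries labelled TLR4-/- and 0.48 in WT. For Thbs2 it was -0.43 (SE 0.12, edgeR adjusted p = 0.0122), with 10705, 10091 and 8994 normalized counts with PBS and 8834, 9392 and 10256 with rmCIRP in the libraries labelled TLR4-/-. For Cthrc1 it was 0.52 (SE 0.19, edgeR adjusted p = 0.045) and for Sparc 0.17 (SE 0.06, edgeR adjusted p = 0.0491). The Postn difference was 0.23 (SE 0.10, edgeR adjusted p = 0.101).

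The Tnc and Thbs2 differences held without any 1 library. Cthrc1 was not called without WT rmCIRP library 3 or rmCIRP library 2 labelled TLR4-/- (edgeR adjusted p 0.103 to 0.132). Sparc was not called in 6 of 12 such fits, those without WT PBS library 2, WT rmCIRP library 2 or 3, or, among those labelled TLR4-/-, PBS library 3 or rmCIRP library 2 or 3 (0.112 to 0.222), while Postn was called without WT rmCIRP library 1 or PBS library 1 or 2 labelled TLR4-/- (0.0354 to 0.0913). Between 2 and 5 of the 9 genes were called over the 12 fits, with 2 called without WT rmCIRP library 3 or without rmCIRP library 2 labelled TLR4-/-. Among all genes, 4237 to 4934 were called over these fits.

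The response to rmTGF-β1 was compared in the same way. In the libraries labelled TLR4-/-, Postn and Thbs2 rose and Tnxb fell, 3 of 9 genes called against 23.9% of all genes. Postn had 15108, 14591 and 12332 normalized counts with PBS and 17856, 18207 and 17191 with rmTGF-β1 (log2 fold change 0.35, SE 0.07, edgeR adjusted p = 0.00132). Thbs2 had 10705, 10091 and 8994 with PBS and 13053, 11679 and 13364 with rmTGF-β1 (log2 fold change 0.36, SE 0.09, edgeR adjusted p = 0.00491). Neither gene's groups overlapped, nor did those of Spp1, which was not called (log2 fold change -0.12, SE 0.07, edgeR adjusted p = 0.264).

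Tnxb had 406, 289 and 382 with PBS and 216, 209 and 276 with rmTGF-β1 (log2 fold change -0.61, SE 0.22, edgeR adjusted p = 0.0549), and this call was lost without PBS library 1 or 3 or rmTGF-β1 library 1 or 2 (0.139 to 0.182). Cthrc1, with 1150, 1050 and 844 against 887, 817 and 859, overlapped and was not called (log2 fold change 0.25, SE 0.13, edgeR adjusted p = 0.204), and without rmTGF-β1 library 3 it was (log2 fold change 0.37, edgeR adjusted p = 0.0798). Between the genotypes, the rmTGF-β1 responses differed by edgeR for 0 of the 9 genes, against 0.0861% of all genes. For 0 of the 9 was the unadjusted p under 0.05, against 1686 of all 16258 genes tested. DESeq2 called 0 of the 9 and 163 of all genes. The Cthrc1 difference was -0.28 (SE 0.18, edgeR adjusted p = 0.635), so at this spread a smaller Cthrc1 response in the libraries labelled TLR4-/- could not be told from an equal one.

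With both proteins, the libraries labelled TLR4-/- were widely scattered in some genes. Cthrc1 had 1100, 896 and 601 normalized counts, Tnxb 289, 309 and 542, and Tnc 197284, 226994 and 247777, and in each gene the library that stood apart was at the end of the range. Against rmTGF-β1 alone 0 of 9 genes were called by edgeR (2.69% of all genes), 5 had an unadjusted p under 0.05, and DESeq2 called 1. Of all 16258 genes tested, 2912 had an unadjusted p under 0.05, and DESeq2 called 902. Leaving out single libraries gave 0 to 4 called members, 4 without combined library 1 (Fn1, Tnc, Tnxb and Cthrc1), 2 without rmTGF-β1 library 3, 1 without combined library 2 and 0 without combined library 3. The calls among all genes swung too, at 2674, 2141, 738 and 1 in the same fits and order, against 437 with all libraries. Tnxb had the largest value, 0.68 (SE 0.21, edgeR adjusted p = 0.115), which was 0.34 without combined library 3.

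Against rmCIRP alone, Thbs2 and Tnc were higher and Sparc lower, 3 of 9 genes against 32.8% of all genes. Thbs2 had 12902, 13558 and 15266 with both proteins and 8834, 9392 and 10256 with rmCIRP, a 1.46-fold difference without overlap (log2 fold change 0.55, SE 0.09, edgeR adjusted p = 0.000107), and it was called without any 1 library. Tnc had a log2 fold change of 0.25 (SE 0.07, edgeR adjusted p = 0.0157), which became 0.17 without combined library 3 (edgeR adjusted p = 0.101). Sparc had a log2 fold change of -0.11 (SE 0.04, edgeR adjusted p = 0.0856) and was not called in 5 of the 6 fits that left out a library, that is all but the fit without rmCIRP library 1 (0.108 to 0.282). It was also lost with RLE scaling (0.101) and when only these 6 libraries were fitted (0.23). Without combined library 3, 1 of the 9 genes was called, Thbs2, while Fn1 was called without combined library 1 or 2 (0.0857 to 0.0872).

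Marker sums moved in this comparison too. All 5 endothelial markers were higher with both proteins than with rmCIRP (median log2 fold change 1.12, sums of 758.2 to 1464 against 675.4 to 702.9), and of the 5 smooth muscle and pericyte markers 2 were higher and 3 lower (33696 to 53581 against 56869 to 59403). Of the fibroblast markers 0 were higher and 3 lower, and of the macrophage markers 2 and 2. Combined library 3 had a fibroblast sum of 324469, against 432524 and 399908 in the other 2, and a macrophage sum of 421078, against 369366 and 337432. The part of these shifts in the members' values was not tested.

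The genotypes were compared in PBS, without any stimulus. Spp1 and Postn were higher in the libraries labelled TLR4-/-, Tnxb, Tnc, Thbs2, Cthrc1, Thbs1 and Sparc were lower, and Fn1 was not called. These 8 of 9 genes stood against 47.1% of all genes tested, and the median log2 fold change was -0.188 over the 9 genes and -0.02 over all genes.

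Spp1 had 50000, 50839 and 53404 normalized counts in WT and 206812, 211527 and 231173 in the libraries labelled TLR4-/-, a 4.2-fold difference (log2 fold change 2.07, SE 0.07, edgeR adjusted p = 6.19e-16). Postn had 7751, 7644 and 7428 in WT and 15108, 14591 and 12332, a 1.84-fold difference (log2 fold change 0.88, SE 0.07, edgeR adjusted p = 7.41e-10). Under all 4 treatments the libraries labelled TLR4-/- were above the WT libraries in both genes.

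Tnxb had 406, 289 and 382 against 653, 831 and 772 in WT, 0.478 of the WT level (log2 fold change -1.07, SE 0.19, edgeR adjusted p = 0.000123). Tnc had 192836, 195182 and 172309 against 276179, 300968 and 276369 (log2 fold change -0.61, SE 0.07, edgeR adjusted p = 5.32e-07), and Thbs2 10705, 10091 and 8994 against 13370, 16229 and 13850 (log2 fold change -0.55, SE 0.09, edgeR adjusted p = 1.91e-05). Cthrc1 was lower by a log2 fold change of -0.44 (SE 0.13, edgeR adjusted p = 0.00889). None of these groups overlapped. Thbs2 therefore had a lower start in the libraries labelled TLR4-/-, and its mean with rmTGF-β1 there, 12699, was still under the WT mean with PBS, 14483.

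The smallest differences were those of Thbs1, Sparc and Fn1. Thbs1 had 567482, 601147 and 507551 against 610122, 659321 and 635866 in WT (log2 fold change -0.19, SE 0.06, edgeR adjusted p = 0.0092), and it was not called without PBS library 3 labelled TLR4-/- (log2 fold change -0.11, edgeR adjusted p = 0.126). Sparc had a log2 fold change of -0.14 (SE 0.04, edgeR adjusted p = 0.0168), not called without that library or without WT PBS library 2 (edgeR adjusted p 0.235 and 0.18). Fn1 had 247491, 251069 and 216225 against 226585, 247911 and 233241 (log2 fold change 0.01, SE 0.06, edgeR adjusted p = 0.91). Fn1 was not called here or in the other 11 comparisons, although it was called in 5 of them with no filter on low counts, in 2 with the replicate block and in 2 with the compared libraries alone, and its lowest of 24 libraries was combined library 3 labelled TLR4-/-, at 203451.

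Since Spp1 is also made by macrophages, the marker sums stand beside it. The 13 macrophage markers summed to 90887 to 99204 normalized counts in the WT PBS libraries and 338308 to 386671 in the PBS libraries labelled TLR4-/-. Of the 13 genes, 12 were higher and 1, Marco, lower, with a median log2 fold change of 1.97, and none was at 0 in a whole group. Most of the macrophage sum was Lyz2, with means of 78175 in WT and 281641 in those labelled TLR4-/-. Spp1 divided by this sum, and so mainly by Lyz2, was 0.512 to 0.55 in the WT PBS libraries. It was 0.588 to 0.611 in those labelled TLR4-/-, and the ratios did not overlap. With rmTGF-β1 the ratios were also apart (0.494 to 0.503 and 0.531 to 0.559), and with rmCIRP (0.584 to 0.629 and 0.601 to 0.609) and with both proteins (0.539 to 0.566 and 0.562 to 0.575) they overlapped. The fibroblast markers summed to 432476 to 449364 and 412115 to 451180, with 1 of 7 higher and 3 lower. Col1a1 and Col1a2 made up most of these sums and were not called. Their means were 242156 and 144411 in WT and 241194 and 153536 in those labelled TLR4-/-. Pdgfra, Thy1 and Pdgfrb were lower (0.438, 0.449 and 0.805 of WT), Dcn was higher (1.19-fold), and Lum was not called. The 5 smooth muscle and pericyte markers summed to 83050 to 88848 in WT and 55110 to 58164 in those labelled TLR4-/-, with 1 higher and 3 lower. The 5 endothelial markers summed to 721.8 to 1009 and 724.8 to 806.1, with Vwf higher (log2 fold change 2.13), Pecam1, Cdh5 and Tie1 lower (-1.72, -1.81 and -2.04) and Kdr not called. The 5 epithelial markers, 2 of which passed the filter and were higher, summed to 56.2 to 81.81 in WT, with Nkx2-1 at 0, and to 217.2 to 247 in those labelled TLR4-/-. The part of RNA from macrophages or these other cells in the members' differences was not tested.

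**Figure D4:**
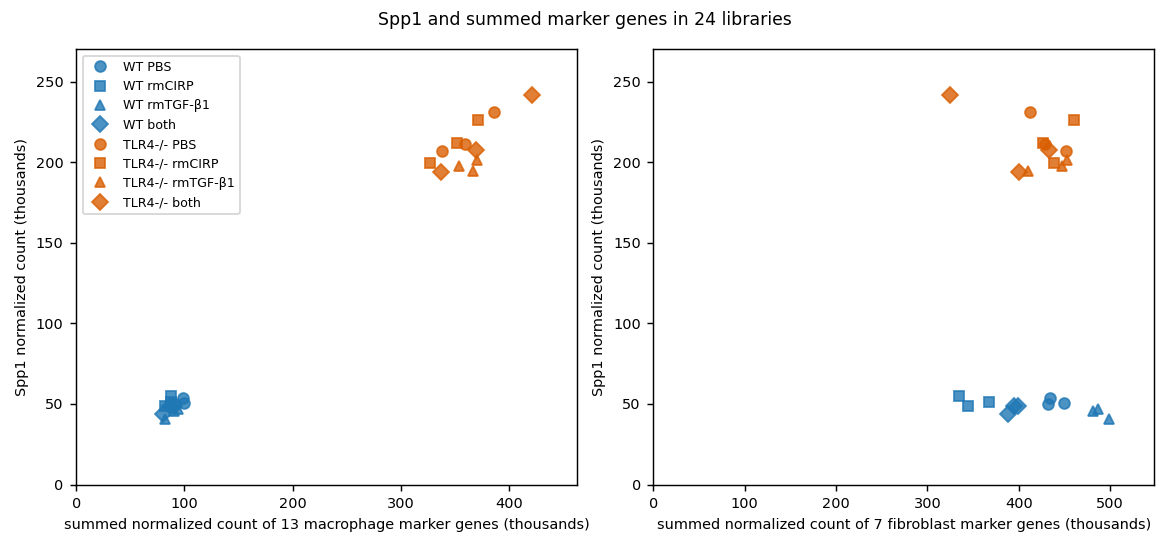
Spp1 normalized counts against the summed normalized counts (both axes in units of 1000) of 13 macrophage markers (left) and 7 fibroblast markers (right), with 1 point per library, color for the genotype label and shape for the treatment. The WT libraries sit at macrophage sums of 80165 to 99204 and the libraries labelled TLR4-/- at 327112 to 421078. The fibroblast sums, mostly Col1a1 and Col1a2, overlap between the genotypes, although single fibroblast markers differed.

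For each member, the genes with the most similar profile over the 24 libraries were sought by Pearson's r of log2 values, over the 12311 genes that averaged 50 normalized counts or more. The points share 2 genotypes and 4 treatments, so these values describe the profiles only. Spp1 was most like Fermt3 (r = 0.999) and Vav1 (r = 0.998), which are adaptors and signalling proteins of blood cells, and within the 12 WT libraries these values were 0.88 and 0.71. Tnc was most like Bhlhe22 (r = 0.987) and Gnb4 (r = 0.983), and Thbs2 like Glis3 (r = 0.97) and Hspb8 (r = 0.968). Tnxb was nearest to Cd55 (r = 0.962) and Medag (r = 0.949), Postn to Myo7a (r = 0.969) and Ostf1 (r = 0.962), and Cthrc1 to Fkbp10 (r = 0.955), a collagen chaperone, and Bpgm (r = 0.954). Thbs1 was nearest to Golga3 (r = 0.957) and Dsel (r = 0.953), Sparc to Rilpl1 (r = 0.924) and Prkg1 (r = 0.904), and Fn1 to Sulf1 (r = 0.865) and Adamts12 (r = 0.846). For Postn the likeness fell within the 12 libraries labelled TLR4-/-, to 0.55 for Myo7a and 0.6 for Ostf1.

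Relatives and neighbours of the members in the matrix were taken as a list of 28 glycoprotein genes, 22 of which passed the filter. With rmCIRP in WT, 4 rose and 8 fell, against 43.9% of all genes called in either direction. Tnn (tenascin N) rose from a mean of 26.4 to 99.9 normalized counts (log2 fold change 1.91) and Smoc2, a SPARC relative, by 0.28, while Dmp1 fell by 0.95 and Tgfbi, the closest relative of Postn, fell by 0.90. With rmTGF-β1 in WT, 2 rose, Smoc2 by 0.48 and Igfbp7 by 0.18, and 1 fell, the basement membrane gene Nid1 (-0.14), against 12.4% of all genes. With rmTGF-β1 in the libraries labelled TLR4-/-, 3 rose and 6 fell (23.9% of all genes were called), with Smoc2 at 0.88 and Tgfbi at 0.71 against Fras1 at -0.53 and Smoc1 at -0.42. Between the genotypes with PBS, 2 were higher and 15 lower in the libraries labelled TLR4-/-, with a median log2 fold change of -0.58, against 47.1% of all genes called. Tgfbi (1.62) and Fbln2 (0.29) were the 2 higher genes, and Smoc2 (-2.30) and Sparcl1 (-1.35) fell the most. In the libraries labelled TLR4-/-, rmCIRP changed none by edgeR.

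Receptors through which cells bind the members were taken as 21 genes, all of which passed the filter. With rmCIRP in WT, 9 rose and 8 fell (43.9% of all genes were called), led by the integrin subunits Itgb3 (log2 fold change 1.13) and Itga4 (0.93) and by Stab1, a receptor that takes up SPARC (-0.61), and Itga3 (-0.58). With rmTGF-β1 in WT, 4 rose and 3 fell (12.4% of all genes), among them Itga9 (0.27), a tenascin-binding subunit, Itga5 (0.22), the fibronectin-binding subunit, Sdc4 (-0.29) and Itga6 (-0.22). In the libraries labelled TLR4-/-, 5 were higher and 6 lower with rmTGF-β1 (23.9% of all genes), with Itgb3 at 0.84, Itga5 at 0.32, Itgb8 at -1.85 and Itgb6 at -1.09, and edgeR called none with rmCIRP. Between the genotypes with PBS, 8 were higher and 6 lower (47.1% of all genes), with Stab1 at 2.67 and Itga6 at 2.08 against Itgb8 at -1.04 and Itga8 at -1.01. The rmCIRP response differed between the genotypes for 17 of the 21 receptors, 8 with a positive and 9 with a negative difference (31.4% of all genes), and the rmTGF-β1 response for 0 by edgeR.

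Exons of 5 members overlap those of another gene, so their counts can depend on how reads in the shared bases were assigned. That assignment was not examined, so whether these members gained or lost reads is not known. For overlaps on the other strand it also depends on the strand setting, which is not given in the sources used here. In GENCODE M21, exons of Fn1 shared 292 bases with Apol7d, those of Tnc 176 bases with 8030451A03Rik, those of Thbs1 208 bases with Gm29233 and those of Tnxb 3 bases with Cyp21a2-ps, all on the other strand, and exons of Spp1 shared 309 bases with Gm42793 on the same strand. Postn, Thbs2, Sparc and Cthrc1 had no overlapping exons.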

How the data were processed

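RNA from cultured lung fibroblasts was sequenced in 24 libraries (TruSeq Stranded Total RNA kit, Illumina NextSeq). The deposited values are raw counts per gene symbol, made by the authors with FastQC, STAR and HTSeq against mouse GENCODE annotation. The submitters' processing notes list the build NCBIM37, and the GENCODE release and strand setting are not given in the sources used here. Of the 55291 symbols, 53292 are in GENCODE M21, which served only for exon lengths and overlaps. The 5 tally lines that name no gene held 14.5 to 16.1% of listed reads and were left out.

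Groups came from the sample labels. Counts were fitted in edgeR 4.0.16 (R 4.3.3) with TMM scaling, filterByExpr and one mean per condition over all 24 libraries, and contrasts were tested by the two-sided quasi-likelihood F test with Benjamini-Hochberg adjustment over 16258 genes. Calls were made at an adjusted p under 0.1, the false discovery limit of the study. Each standard error was obtained from the log2 fold change and the F statistic, as their ratio with F under a square root. Levels are counts divided by DESeq2 1.42.0 size factors. The code was tested on simulated data. Replicates differed beyond counting noise in every pair (chi-square per degree of freedom 2.55 to 47.1). Alternatives were DESeq2, another scaling, other filters, a replicate block, fits on the compared libraries alone and leaving out each library.

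The members, gene lists and tests were chosen with earlier results of these data known. The text names all 9 members, the 2 genes most like each, Tlr4 as a check of the label, and, for each list and comparison described, at most 4 genes with the strongest changes past the threshold (2 in each direction). Marco, Lyz2, Xist, Ddx3y, Nkx2-1 and the fibroblast and endothelial genes were named after their values were seen. One further marker list is not reported here.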

Additional observations from a re-analysis of the deposited data

Results flagged for a closer look

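Of the 9 genes, 4 had a response to rmCIRP that differed between the genotypes by the edgeR test of the difference itself, each given as the log2 change in the libraries labelled TLR4-/- minus that in WT, with 3 libraries per condition. The values were -0.47 for Tnc, -0.43 for Thbs2, 0.17 for Sparc and 0.52 for Cthrc1. The share of all genes with such a difference was 31.4%. In WT all 3 rmCIRP libraries lay on one side of the 3 PBS libraries in each of these genes, and in the libraries labelled TLR4-/- the groups overlapped. The 4 genes were picked by a test on these same libraries, so this describes them and adds no support. Fn1, which was not picked, showed the same, and all 9 genes overlapped in the libraries labelled TLR4-/-. The labels also differed in Xist and in macrophage marker sums, and the part of these was not tested.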

How the results depend on the processing

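The count of members called stayed within 1.5 times its value under DESeq2, RLE scaling, other filters, the replicate block and fits on the compared libraries alone, with these exceptions. For both proteins against rmCIRP in WT it was 3 and became 6 with no filter on low counts and 6 on the compared libraries alone. In the libraries labelled TLR4-/-, it went from 3 to 5 with no filter for rmTGF-β1 against PBS, from 3 to 5 with no filter for both against rmCIRP, and from 0 to 1 (DESeq2), 7 (no filter) and 2 (replicate block) for both against rmTGF-β1. The genotype difference in the rmTGF-β1 response went from 0 to 1 with no filter. Among all genes, rmCIRP in the libraries labelled TLR4-/- gave 0 calls and 33 (DESeq2), 149 (no filter), 1 (replicate block) and 29 (compared libraries alone). Both against rmTGF-β1 there gave 437, and 902, 1580, 810 and 0 under the same settings, and both against rmCIRP 5329 and 2710 on the compared libraries alone. The genotype difference in the rmTGF-β1 response gave 14, and 163 (DESeq2), 563 (no filter), 23 (mean count of at least 10) and 22 (replicate block), and the interaction gave 8, and 37 (DESeq2), 198 (no filter) and 125 (compared libraries alone). The cause was not tested.

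Leaving out 1 library at a time gave 2 to 5 called members for rmTGF-β1 against PBS in WT, 3 to 5 for both against rmTGF-β1 in WT, 0 to 4 for both against rmTGF-β1 and 1 to 3 for both against rmCIRP in the libraries labelled TLR4-/-, and 2 to 5 for the genotype difference in the rmCIRP response. The counts of all genes ranged from 1029 to 1690 (rmTGF-β1 in WT), 0 to 9 (rmCIRP, labelled TLR4-/-), 2517 to 3783 (rmTGF-β1, labelled TLR4-/-), 0 to 2674 (both against rmTGF-β1, labelled TLR4-/-), 0 to 119 (genotype difference in the rmTGF-β1 response) and 2 to 7 (interaction). They also ranged from 5858 to 6287 (both against rmTGF-β1 in WT), 3802 to 5985 (both against rmCIRP, labelled TLR4-/-) and 4237 to 4934 (genotype difference in the rmCIRP response).

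Every change of sign concerned a value that was not called. Fold changes on the log2 scale near 0 turned to 0.0017, 0.0024, 0.0086, 0.0146 and 0.0154 (Thbs1) and 0.0038, 0.0045, 0.0103, 0.0165 and 0.0172 (Spp1) for rmCIRP in WT under DESeq2, RLE scaling, no filter, a mean of at least 10 and the compared libraries alone. With no filter, Thbs1 and Sparc turned to -0.0108 and -0.0127 for rmTGF-β1 and Spp1 to -0.0026 for both against rmCIRP in the libraries labelled TLR4-/-, and Fn1 to -0.013 for the genotype difference in the rmTGF-β1 response. With a mean count of at least 10, Tnxb turned to 0.0039 for both against rmTGF-β1 in WT and Thbs1 to -0.0007 for the genotype difference in the rmCIRP response. With the replicate block, Cthrc1 turned to -7.8e-05 for both against rmCIRP in the libraries labelled TLR4-/-.

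When 1 library was left out, uncalled log2 values that changed sign had these ranges. For rmCIRP in WT they were Tnxb -0.0239 to 0.1814, Thbs1 -0.0273 to 0.0336 and Spp1 -0.0391 to 0.0494. For rmTGF-β1 in WT the range was Sparc -3.2e-05 to 0.0835. For both against rmTGF-β1 in WT the range was Tnxb -0.1648 to 0.0648. For rmCIRP in the libraries labelled TLR4-/- they were Fn1 -0.0032 to 0.1067, Tnc -0.0487 to 0.0443, Thbs1 -0.0543 to 0.0714, Sparc -0.0439 to 0.0407, Spp1 -0.0646 to 0.0217 and Cthrc1 -0.0688 to 0.0572. For rmTGF-β1 in those libraries they were Tnc -0.0059 to 0.1498, Thbs1 -0.057 to 0.0636 and Sparc -0.0442 to 0.0364. For both against rmCIRP in those libraries they were Tnxb -0.1073 to 0.3882, Postn -0.025 to 0.0722, Spp1 -0.0839 to 0.0739 and Cthrc1 -0.1904 to 0.2137. For the genotypes with PBS the range was Fn1 -0.0344 to 0.0932. For the genotype difference in the rmCIRP response they were Thbs1 -0.0629 to 0.0784 and Spp1 -0.0775 to 0.0113. For the genotype difference in the rmTGF-β1 response they were Fn1 -0.0554 to 0.0673, Tnxb -0.17 to 0.0571, Thbs2 -0.0326 to 0.1309 and Sparc -0.095 to 0.0072. For the interaction they were Fn1 -0.0099 to 0.0499, Tnc -0.0122 to 0.0745, Tnxb -0.2167 to 0.018 and Sparc -0.0643 to 0.0049.

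Replicate numbers gave no uniform pairing of the samples. Over 84 pairs with the same number, the mean correlation of deviations was 0.022 (-0.29 to 0.56). Of these pairs 21 were over 0.1, and 11 of 24 libraries correlated best with their own number. Whether some conditions shared a batch was not tested. With the replicate block, the members called went from 0 to 2 for both against rmTGF-β1 in the libraries labelled TLR4-/-, from 3 to 4 for rmTGF-β1 there, for both against rmCIRP there and for both against rmCIRP in WT, and from 4 to 6 for the genotype difference in the rmCIRP response. The precision is limited by 3 libraries per condition, and the lowest raw count of a member was 197 (Tnxb).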
